A study of Mus musculus with 3 samples.

Results

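In chromatin of mouse alveolar type II (AT2) cells, 1481 of the 15134 deposited H3K4me3 peaks lay at ends of at least 2 genes and are called shared promoters here. A peak was counted when its summit lay within 1 kb of an end of 2 or more protein-coding genes, its length was below 3500 bp and it lay on chromosomes 1 to 19 or X. Of these, 1453 had 2 genes and 28 had 3. The rule does not ask that the ends be starts, and by strand 828 were head-to-head pairs of starts. The members were thus chosen by the measured position of the H3K4me3 summit and the measured length of the H3K4me3 peak, so H3K4me3 values are given only as descriptions. The ETV5 values were read from a separate library. They were set beside 8266 one-gene promoters, which are H3K4me3 peaks of the same length range and chromosomes with exactly 1 protein-coding gene end within 1 kb, and beside all H3K4me3 peaks.

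The series holds 3 samples, an ETV5 chromatin immunoprecipitation (ChIP), an H3K4me3 ChIP and an input library, all from AT2 cells of C57BL/6 mice aged 10 to 12 weeks. The labels name no treatment and no altered allele. How many animals each library pools is not stated in the labels. There was 1 library per antibody, so no value has a replicate check and no test between groups was possible. Intervals printed below are exact at 95%, binomial (Clopper-Pearson) for shares and Poisson for pileups, and express no error other than that of counting.

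When 2 genes lie back to back, with their starts close together and transcription running outward in opposite directions, the stretch between them serves as a promoter for both and is called bidirectional or head-to-head. Such promoters are common in mammals, usually lie in CpG islands and often belong to housekeeping genes of mitochondria, DNA repair and RNA processing. H3K4me3, trimethylation of lysine 4 of histone H3, marks the nucleosomes beside active start sites. ETV5 is an ETS-family transcription factor of the PEA3 group, which acts downstream of FGF and ERK signalling and maintains AT2 cells. ETS factors bind a core written GGAA, often within CCGGAA.

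The promoter windows of several of these pairs show the letters on which the values below bear. Each window runs from 250 bases before to 50 bases after the start of the gene, on that gene's strand, 5′ to 3′, as given by RefSeq for GRCm38.p6, and positions are counted from 1 at its 5′ end. Capitals mark CCGGAA or its reverse complement TTCCGG. The first 5 windows hold the ETV5 summit of 5 of the 10 members with the highest ETV5 pileup, and they include windows with and without the word. The window of Hspe1 belongs to a textbook head-to-head promoter, and the last pair of windows belongs to the 2 members with the highest H3K4me3 pileup among those without ETV5.

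Ptcd2 (GRCm38.p6 chr13:99344629-99344928, minus strand): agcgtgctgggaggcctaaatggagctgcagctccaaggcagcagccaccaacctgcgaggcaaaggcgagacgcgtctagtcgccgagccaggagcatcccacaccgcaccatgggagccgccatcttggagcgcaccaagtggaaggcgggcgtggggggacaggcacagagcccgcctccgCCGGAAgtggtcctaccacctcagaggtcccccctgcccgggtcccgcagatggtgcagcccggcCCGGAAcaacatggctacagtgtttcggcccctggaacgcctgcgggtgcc
Arpc4 (GRCm38.p6 chr6:113377863-113378162, plus strand): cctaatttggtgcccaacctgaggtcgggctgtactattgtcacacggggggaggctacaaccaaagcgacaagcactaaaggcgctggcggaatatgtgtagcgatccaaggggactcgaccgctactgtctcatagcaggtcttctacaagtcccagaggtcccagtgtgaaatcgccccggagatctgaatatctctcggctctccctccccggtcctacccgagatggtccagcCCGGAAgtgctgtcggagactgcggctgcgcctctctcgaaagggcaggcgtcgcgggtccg
Ap5m1 (GRCm38.p6 chr14:49066299-49066598, plus strand): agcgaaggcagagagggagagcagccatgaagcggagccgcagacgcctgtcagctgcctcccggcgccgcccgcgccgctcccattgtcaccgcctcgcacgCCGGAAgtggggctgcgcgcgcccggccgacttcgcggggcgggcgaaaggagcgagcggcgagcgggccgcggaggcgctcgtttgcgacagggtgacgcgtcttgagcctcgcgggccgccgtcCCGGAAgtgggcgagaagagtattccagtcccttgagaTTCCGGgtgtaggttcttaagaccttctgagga
Ndufb1 (GRCm38.p6 chr12:101975689-101975988, minus strand): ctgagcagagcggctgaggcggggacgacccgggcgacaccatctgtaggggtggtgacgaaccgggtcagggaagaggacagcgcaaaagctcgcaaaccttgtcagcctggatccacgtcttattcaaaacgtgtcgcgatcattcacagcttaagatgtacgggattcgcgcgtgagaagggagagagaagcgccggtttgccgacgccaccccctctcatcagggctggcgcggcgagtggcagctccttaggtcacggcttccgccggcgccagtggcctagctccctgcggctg
Rhbdd3 (GRCm38.p6 chr11:5099023-5099322, plus strand): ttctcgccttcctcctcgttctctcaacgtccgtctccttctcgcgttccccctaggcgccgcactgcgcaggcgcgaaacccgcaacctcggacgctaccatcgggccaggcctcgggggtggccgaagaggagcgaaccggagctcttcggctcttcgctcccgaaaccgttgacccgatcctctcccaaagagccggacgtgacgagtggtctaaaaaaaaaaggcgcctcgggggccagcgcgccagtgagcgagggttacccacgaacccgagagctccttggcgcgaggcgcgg
Hspe1 (GRCm38.p6 chr1:55087898-55088197, plus strand): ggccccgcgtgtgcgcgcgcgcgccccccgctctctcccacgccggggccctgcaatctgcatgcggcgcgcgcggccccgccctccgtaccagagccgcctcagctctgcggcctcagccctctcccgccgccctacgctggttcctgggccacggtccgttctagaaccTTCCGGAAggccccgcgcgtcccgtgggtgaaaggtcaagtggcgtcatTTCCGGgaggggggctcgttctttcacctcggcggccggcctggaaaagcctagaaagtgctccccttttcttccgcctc
Vps50 (GRCm38.p6 chr6:3498143-3498442, plus strand): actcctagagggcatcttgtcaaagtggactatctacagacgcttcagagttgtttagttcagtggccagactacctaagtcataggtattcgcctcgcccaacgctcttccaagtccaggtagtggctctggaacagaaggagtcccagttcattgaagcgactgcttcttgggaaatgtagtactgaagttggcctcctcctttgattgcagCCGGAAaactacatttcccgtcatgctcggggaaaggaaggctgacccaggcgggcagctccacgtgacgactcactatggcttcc
Tpp1 (GRCm38.p6 chr7:105752186-105752485, minus strand): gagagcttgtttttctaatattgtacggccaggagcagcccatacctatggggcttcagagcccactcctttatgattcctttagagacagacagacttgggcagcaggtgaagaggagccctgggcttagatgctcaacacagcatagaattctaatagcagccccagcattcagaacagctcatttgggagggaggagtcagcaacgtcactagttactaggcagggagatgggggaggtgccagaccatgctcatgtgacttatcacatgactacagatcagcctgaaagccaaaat

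The Ptcd2 window held the word at positions 185 and 250, with the ETV5 summit between them at position 219. In the Ap5m1 window it stood at positions 104, 230 and 268, and the ETV5 summit at position 254. The Hspe1 window held it at positions 172 and 174, where both strands' copies overlap, and at 221, with the ETV5 summit at position 203. The Arpc4 window had the word at position 239 and the summit at position 147. The windows of Ndufb1 and Rhbdd3 had no match to CCGGAA on either strand although ETV5 summits lay at positions 166 and 219. Both of these windows do hold the shorter core GGAA or its reverse complement TTCC. The Vps50 window had a match to CCGGAA at position 215 although no ETV5 peak overlapped that promoter.

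Per the file headers, peaks came from 5715049 ETV5 tags and 34907608 H3K4me3 tags, and the ETV5 pileup counts the fragments that cover the summit of a peak. H3K4me3 lay within 1 kb of an end of 10 of 10 AT2 marker genes, with summit pileups of 196 at Napsa to 395 at Etv5. Of 15 markers of other lung cells, 4 had H3K4me3, with pileups of 112 at Ager, 291 at Aqp5, 167 at Cd68 and 125 at Foxj1. None of the 3 endothelial or the 3 mesenchymal markers had a peak. Whether chromatin of other cells contributed to the values below was not tested.

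ETV5 lay on nearly all shared promoters and was higher there than on one-gene promoters. An ETV5 peak overlapped 96.2% of the shared promoters (1424 of 1481, 95% interval 95.04 to 97.07%), against 92.3% of the one-gene promoters (7630 of 8266, 91.7 to 92.9%) and 84.2% of all H3K4me3 peaks on these chromosomes. Over the members with ETV5 the highest ETV5 pileup ran from 7 to 291, with a median of 38 and quartiles at 23.75 and 64, against a median of 28 with quartiles at 18 and 47 over one-gene promoters with ETV5. The distributions overlapped widely. With promoters lacking ETV5 entered at 0, the medians were 37 at shared and 26.5 at one-gene promoters. The ETV5 median over 3341 H3K4me3 peaks with ETV5 but at no gene end was 21. A pileup of at least 100 was reached at 10.3% of shared promoters (152, 8.76 to 11.9%) and at 5.26% of one-gene promoters (435, 4.79 to 5.77%).

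The stricter ETV5 peaks gave the same order. Peaks with a −log10 q of at least 10 lay on 86.5% of the shared promoters, against 77.5% of the one-gene promoters and 68.1% of all H3K4me3 peaks. Peaks with a fold enrichment of at least 10, as the authors deposited it, lay on 73.3% of the shared promoters, against 62.4% of the one-gene promoters and 54.4% of all H3K4me3 peaks. Shared promoters held 1623 of the 31149 ETV5 peaks on these chromosomes (5.21%), and 526 of the 3114 ETV5 peaks in the decile of highest pileup (16.9%). The median pileup of all these ETV5 peaks was 13, below the median of 28 at one-gene promoters with ETV5. Shares of ETV5 peaks were not computed for one-gene promoters, so this rise does not set shared promoters apart.

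The H3K4me3 peaks themselves were also taller and longer at shared promoters. The median H3K4me3 pileup was 245 at shared and 220 at one-gene promoters, and the median length was 1516 and 1305 bp. Shared and one-gene promoters were therefore compared within the same ranges of H3K4me3 pileup, cut at the quartiles of the shared promoters (172, 245 and 295). The ETV5 share was 86.5, 98.6, 99.5 and 100% at shared promoters from the lowest to the highest quartile, against 81.6, 96.4, 98.8 and 99.6% at one-gene promoters. The median ETV5 pileup was 22, 38, 43 and 51 at shared promoters, against 19, 27, 33 and 41 at one-gene promoters. Within ranges of H3K4me3 length, from shortest to longest, the medians were 25, 37, 44 and 48 at shared promoters, against 21, 29, 34 and 37 at one-gene promoters. The shared promoters' median pileup was thus higher in each of these ranges, and the medians differed least at the promoters of least H3K4me3. The intervals of the ETV5 shares overlapped in each of the 4 H3K4me3 quartiles.

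**Figure D1:**
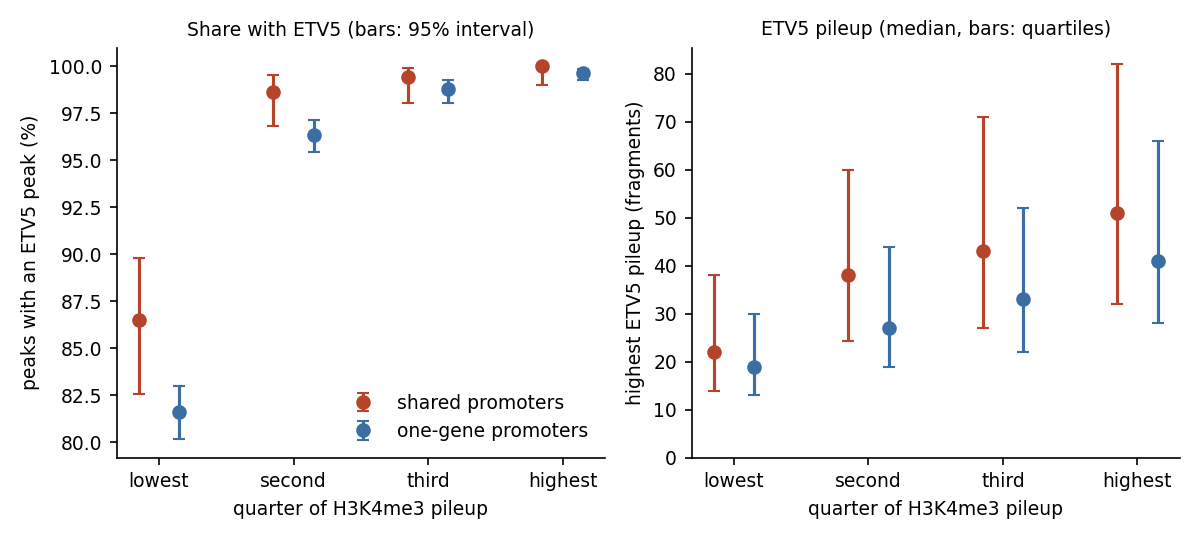
ETV5 at shared promoters (red) and one-gene promoters (blue) by quartile of H3K4me3 pileup, with boundaries at 172, 245 and 295. The left panel gives the percent of peaks with an ETV5 peak and its exact 95% interval, on an axis that does not start at 0, and the right panel gives the median highest ETV5 pileup in fragments with its quartiles. The shared promoters' median was 51 in the highest quartile, against 41 at one-gene promoters.

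The higher ETV5 signal did not come with more ETV5 peaks per promoter. Shared promoters with 2 or more ETV5 peaks made up 14.2% (210 of 1481), against 16.4% of one-gene promoters (1354 of 8266). Among H3K4me3 peaks in the longest of the length ranges the shares were 29.2% (109 of 373) and 39.7% (609 of 1535). The ETV5 peak of highest pileup was itself longer, with a median of 915 bp at shared and 778.5 bp at one-gene promoters.

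Most shared promoters were head-to-head. Strand was given for both genes at 1116 members, and at 828 of these (74.2%, 71.5 to 76.7%) the ends that met were both starts. At 247 the start of a gene met the end of its neighbour, at 29 the genes overlapped with starts on the same strand side by side, and at 12 both ends were the last bases of their genes. At the other 365 members strand was not known for both. By annotation, therefore, the start-with-end and end-with-end members are gene ends lying close together and not promoters of both genes. Between head-to-head starts that did not overlap, the median gap was 97.5 bp (522 pairs, quartiles 42 and 201.75 bp, maximum 1277 bp). Where the annotated genes overlapped by more than 1 base (304 pairs), their start positions differed by a median of 258.5 bp.

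ETV5 differed among these arrangements. Head-to-head pairs had ETV5 at 97.5% (807 of 828, 96.1 to 98.4%) with a median pileup of 42. Pairs of a start with an end had ETV5 at 92.7% (229 of 247, 88.7 to 95.6%) with a median of 31, close to the 92.6% (6017 of 6496) and the median of 29 at one-gene promoters lying at a gene start. The median H3K4me3 pileup was also highest at head-to-head pairs, at 255, but start-with-end pairs had a lower one than one-gene starts, at 201 and 222. Within the quartiles of H3K4me3 pileup given above, head-to-head pairs had ETV5 medians of 21, 38, 44 and 52, against 19, 27, 33 and 41 at one-gene starts. All 12 end-with-end members had ETV5 (73.5 to 100%), with a median ETV5 pileup of 17 and a median H3K4me3 pileup of 41.5.

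**Figure D2:**
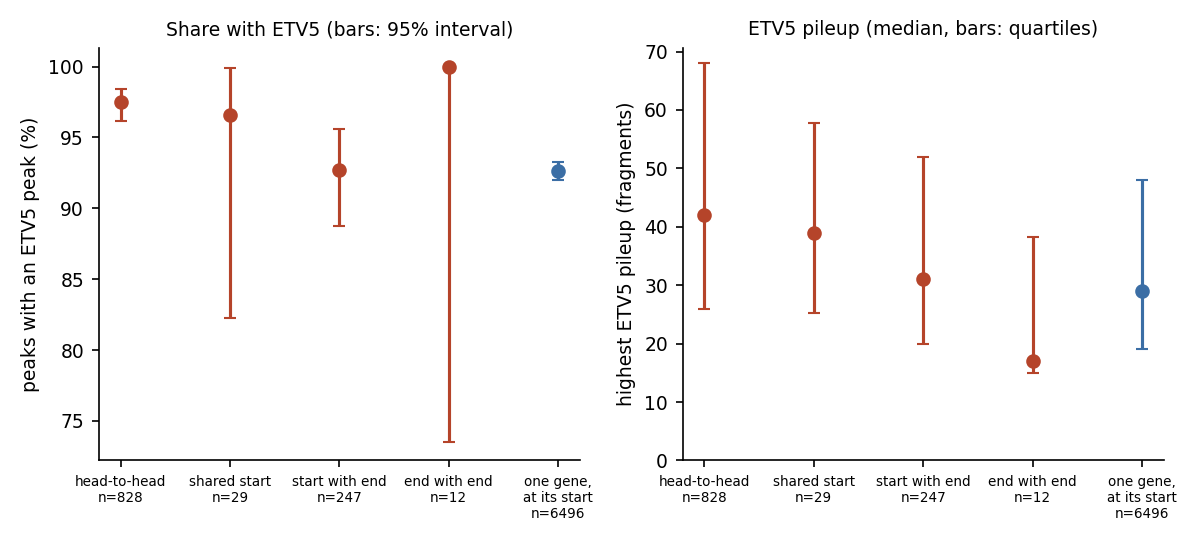
ETV5 by arrangement of the gene ends, with shared promoters in red and one-gene promoters at a gene start in blue. The left panel gives the percent with an ETV5 peak and its exact 95% interval, on an axis that does not start at 0, and the right panel the median highest ETV5 pileup in fragments with its quartiles. Head-to-head pairs had a median of 42, against 29 at one-gene starts.

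Over all members with facing ends ETV5 was lower where those ends lay farthest apart, but its share and median did not fall this way among head-to-head pairs. Over all members with facing ends, the median ETV5 pileup was 41 where the genes overlapped, 41 at gaps under 100 bp, 37 at gaps of at least 100 but under 300 bp and 35.5 at gaps of 300 bp or more. The ETV5 share was 96.1, 98.4, 96.2 and 93.2% in the same order, with intervals of 96.6 to 99.4% at gaps under 100 bp and 89.6 to 95.9% at 300 bp or more. A pileup of at least 100 was reached at 12.7, 12.7, 8.63 and 6.09%, and the median H3K4me3 pileup was 259, 251, 239 and 212. Among head-to-head pairs alone the ETV5 medians were 43, 43.5, 38.5 and 44, with no order by gap, while the shares with a pileup of at least 100 were 12.7, 13.4, 10.0 and 5.41%. The last of these rests on 4 of 74 pairs (1.49 to 13.3%). The ETV5 share of head-to-head pairs was 98.5% at gaps under 100 bp. It was 96.7% at gaps of at least 100 but under 300 bp and 98.6% at 300 bp or more. Of the 279 members with gaps of 300 bp or more, 74 were known head-to-head pairs, so the arrangements differ between the gap classes.

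At most head-to-head pairs the ETV5 summit lay nearer to the middle than the H3K4me3 summit did, though often nearer still to a start. The median distance from the midpoint of both starts was 131.5 bp for the ETV5 summit and 289 bp for the H3K4me3 summit (807 pairs with ETV5). The ETV5 summit was nearer to the midpoint than the H3K4me3 summit at 75.2% of the pairs (607, 72.1 to 78.2%). It lay within 100 bp of the midpoint at 40.3% (325), the H3K4me3 summit at 11.3% (91). Both summits were on the same side of the midpoint at 61.6% (497). To the nearer start the median distances were 86 bp for ETV5 and 233 bp for H3K4me3.

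**Figure D3:**
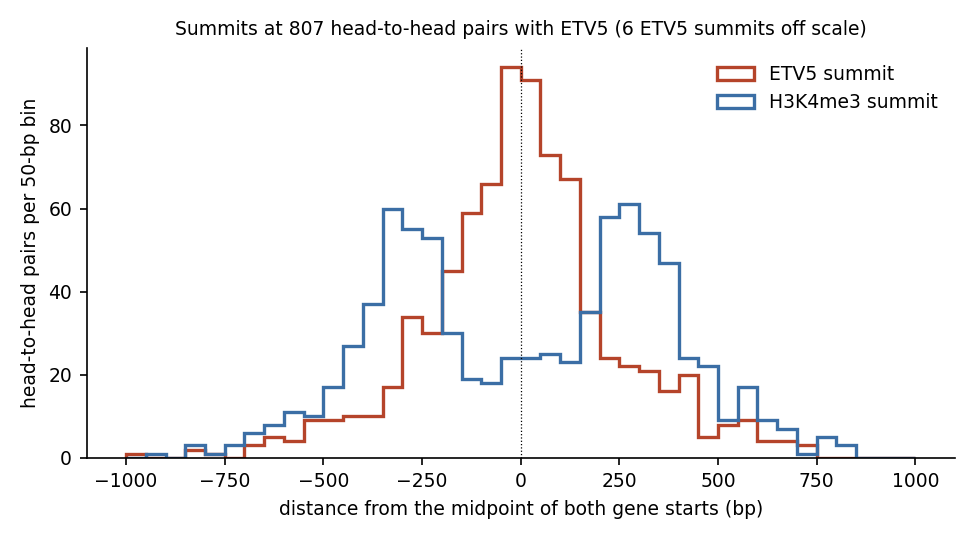
Position of the ETV5 summit (red) and the H3K4me3 summit (blue) at 807 head-to-head pairs with ETV5, as the number of pairs per 50-bp bin of distance from the midpoint of both gene starts. ETV5 summits lie around the midpoint, at a median distance of 131.5 bp, while H3K4me3 summits form a peak on each side, at a median distance of 289 bp.

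Where a gap separated facing genes, the ETV5 summit lay inside the gap at 22.7% (212 of 934, 20.05 to 25.52%) and the H3K4me3 summit at 4.71% (44). Among head-to-head pairs this was 22.3% (114 of 511) for ETV5 and 2.74% (14) for H3K4me3. The ETV5 share grew with the room available, from 9.47% (25 of 264) at gaps under 100 bp through 33.3% (58 of 174) at 100 bp or more but under 300 bp to 42.5% (31 of 73) at 300 bp or more. The other ETV5 summits lay at or past a gene end, within an annotated gene of the pair or beyond it. At start-with-end pairs both summits lay mostly on the side of the start. The ETV5 summit was nearer to the start than to the neighbour's end at 88.2% (202 of 229), and the H3K4me3 summit likewise at 88.2% (202 of 229). The ETV5 summit lay at a median of 140 bp from the start and 467 bp from the neighbour's end. At one-gene starts the ETV5 summit lay at a median of 155 bp from the start and upstream of it at 25.2% (1515 of 6017), and the H3K4me3 summit lay upstream at 9.49% (571).

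The 10 shared promoters with the highest ETV5 pileup, from 239 to 291, belonged to genes of mitochondria, the cytoskeleton, membrane traffic, RNA processing and chromatin among others. Ptcd2 and Mrps27, a mitochondrial RNA-processing protein and a protein of the small mitochondrial ribosomal subunit, start 88 bp apart. Their promoter (H3K4me3 peak chr13:99343904-99345342) had an ETV5 pileup of 288 (256 to 323) with 117.7-fold enrichment, an H3K4me3 pileup of 245, and its ETV5 summit in the gap, 12.5 bp from the midpoint. Arpc4, a subunit of the Arp2/3 actin-nucleating complex, and Tada3, an adaptor of histone acetyltransferase complexes, start 274 bp apart (chr6:113377034-113379037). They had an ETV5 pileup of 249 (219 to 282), also with the summit in the gap, 33.5 bp from the midpoint. Ap5m1, a subunit of the AP-5 adaptor, and Exoc5, a subunit of the exocyst, overlap, and their start positions differ by 259 bp (chr14:49065465-49067314). Their promoter had a pileup of 248, with the summit 14.5 bp from the midpoint.

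Abtb1 and Podxl2 had the highest ETV5 pileup of all members, 291 (259 to 326), and are a start-with-end pair (chr6:88841169-88843283). The ETV5 summit there lay 487 bp from the nearer end in the gene table. It also fell in a RefSeq promoter window of Abtb1 (chr6:88841886-88842185, minus strand), at position 298, which is past that window's start site, and the ETS word stood in that window at position 5. Ccdc77 and Kdm5a, of which Kdm5a encodes a demethylase of H3K4me3, had an ETV5 pileup of 244 with the highest fold enrichment of the 10, 127.1 (chr6:120363152-120365411). Mterf3, a mitochondrial transcription-termination factor family member, and Ptdss1, a phosphatidylserine synthase, had 244. Cpsf2, of the cleavage and polyadenylation machinery, and Ndufb1, a subunit of respiratory complex I, start 20 bp apart and had 242. Rhbdd3 and the RNA-binding protein Ewsr1 had 239. Mier1, a transcriptional corepressor, with Wdr78 had 284, and Tigd5 with the translation elongation factor Eef1d had 249. Strand was not known for both genes at Ccdc77 with Kdm5a, Mterf3 with Ptdss1, Mier1 with Wdr78 and Tigd5 with Eef1d. The H3K4me3 pileups at these 10 promoters ran from 214 to 380, against a median of 245 over all members.

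The tallest H3K4me3 peaks did not carry the tallest ETV5 peaks. The highest H3K4me3 pileups of all members were 425 at Lpxn and Zfp91, 418 at Arid4b and Ggps1, 413 at Yrdc and 1110065P20Rik, 410 at Rsf1 and Aamdc and 409 at Ccnk and Setd3. Their ETV5 pileups were 42, 32, 112, 35 and 32 in the same order, so 4 of 5 lay near the median of 38. Across the 1424 members with ETV5 the rank correlation of H3K4me3 and ETV5 pileup was 0.381 (Spearman), against 0.455 across the 7630 one-gene promoters with ETV5. These are correlations across promoters that share both libraries, and promoters are not replicates.

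No ETV5 peak overlapped 57 shared promoters. The tallest of these by H3K4me3 was that of Vps50, a subunit of an endosomal recycling complex, and Hepacam2, a head-to-head pair 70 bp apart with an H3K4me3 pileup of 266 (chr6:3497958-3499065). Tpp1, a lysosomal peptidase, and Dchs1, a protocadherin, had 258 (chr7:105751483-105752344). Eif2ak2, the double-stranded RNA-activated kinase PKR, with Gm26637 had 233, Myg1 with the prefoldin subunit Pfdn5 had 228, and the major vault protein Mvp with Pagr1a had 224. These 5 peaks were 862 to 1275 bp long, below the median of 1516 bp. An ETV5 peak below the caller's threshold would not be listed, so ETV5 there was not detectable at this depth rather than shown to be absent.

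**Figure D4:**
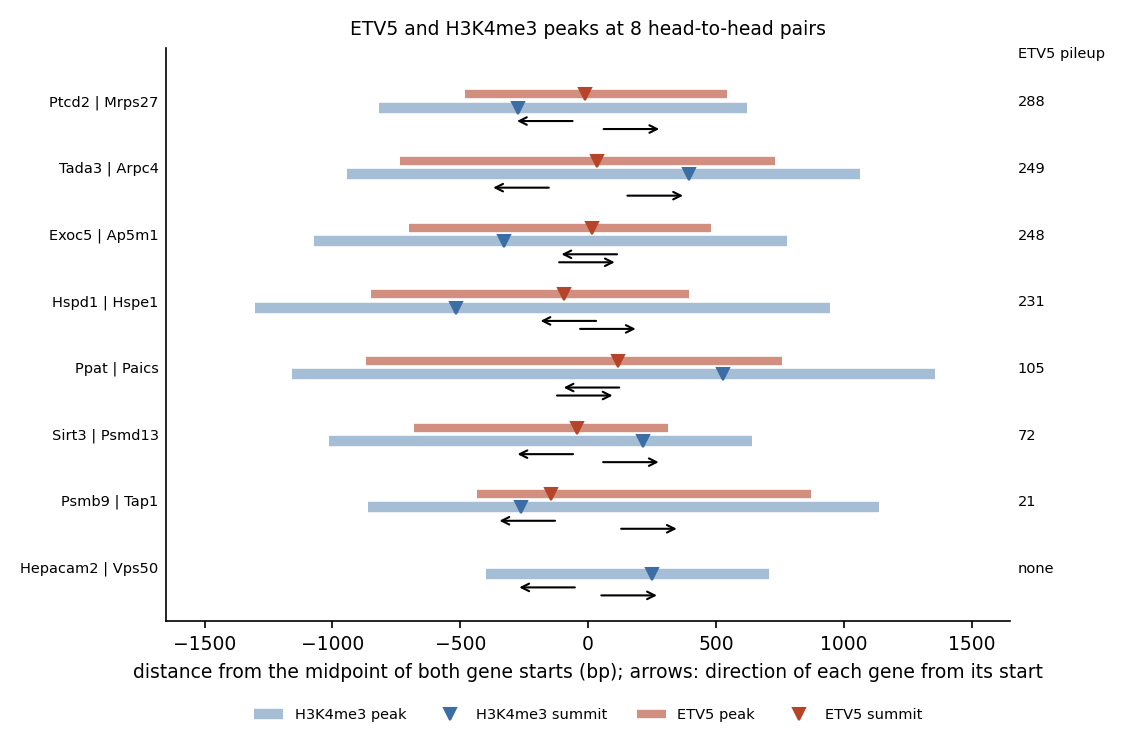
ETV5 peaks (red bars, summits as triangles) and H3K4me3 peaks (blue bars and triangles) at 8 head-to-head pairs, drawn to scale against the midpoint of both gene starts in bp. Arrows mark the direction of each gene from its start and have no scale. The ETV5 pileup at the right runs from 288 at Ptcd2 and Mrps27 to 21 at Psmb9 and Tap1, with none at Hepacam2 and Vps50.

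A set of 46 gene pairs listed by name as close neighbours held 24 pairs that met the rule, and all 24 had ETV5. With 96.2% of all members having ETV5, that count does not set them apart. Hspe1 and Hspd1, a mitochondrial co-chaperonin and its chaperonin, had an ETV5 pileup of 231 (202 to 263), with the summit 95.5 bp from the midpoint (chr1:55086893-55089143). Replication and repair genes spanned a wide range. Ap4m1 with the replicative helicase subunit Mcm7 had 183, the DNA-dependent protein kinase Prkdc with the helicase subunit Mcm4 had 181, and Trp53, the p53 gene, with Wrap53 had 141. The ETV5 summit lay 50 bp from the nearer gene end at Prkdc and Mcm4, but 1146 bp from it at Trp53 and Wrap53. At Ap4m1 and Mcm7 the summit lay 804 bp from the nearer end in the gene table. It also fell in a RefSeq promoter window of Mcm7, at position 300. Npat with the damage kinase Atm had 36, and the flap endonuclease Fen1 with Tmem258 had 35.

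The few named basement-membrane and antigen-presentation pairs also ranged widely, from 11 to 124, against a median of 38 over all members with ETV5. Col4a1 and Col4a2, which encode the main collagen IV chains, had an ETV5 pileup of 35, and Col4a4 and Col4a3 had 11 (5.49 to 19.7). Psmb9 and Tap1, an immunoproteasome subunit and a subunit of the peptide transporter, had 21 (13.0 to 32.1). Rgl2 and Tapbp, of which Tapbp encodes a chaperone of peptide loading, are a start-with-end pair and had 124. Atp5j and Gabpa, an ATP synthase subunit and another ETS factor, had 91. The purine-synthesis genes Ppat and Paics had 105, Psma7 with Ss18l1 had 142, Cpsf7 with Sdhaf2 had 148, and Ranbp1 with Trmt2a had 116. Tk1 and Afmid had 14, with an H3K4me3 pileup of 29.

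Of members with 3 genes, the highest ETV5 pileup was 107 at Atf5, Il4i1b and Nup62, followed by 90 at Ak6, Taf9 and Rad17 and 85 at Frs3, Tomm6 and Prickle4. Ak6 and Taf9 share a start in the annotation. Ubr7, Gm20604 and Gon7 had 74, and Emc8, Gm27021 and Cox4i1 had 73.

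Genes of mitochondrial translation and respiration were often found at shared promoters. Of 78 annotated genes with Mrpl or Mrps symbols, the mitochondrial ribosomal proteins, 39 lay at a shared promoter (50%), against 12.9% of all protein-coding genes (2788 of 21627). The 12.9% also counts genes with no H3K4me3 peak at an end, so it is a low base for groups whose genes mostly have one. Over all genes, 2788 at shared promoters stood beside 8266 one-gene promoters. ETV5 lay on 37 of 39 members with mitochondrial ribosomal proteins and on 34 of 35 one-gene promoters of that group. The median pileups were 43 and 32. Since 96.2% of all members had ETV5, such counts near the full number, here and in the groups below, do not set a group apart. The highest were 288 at Ptcd2 and Mrps27, 130 at Ska3 and Mrpl57, 103 at Mrps16 and Cfap70 and 87 at Mrpl43 and Twnk. The 2 without ETV5, at Mrps23 and Mrps2, had H3K4me3 pileups of 27 and 21. Of 109 genes with respiratory-chain and ATP synthase symbols, assembly factors included, 40 lay at shared promoters (36.7%). ETV5 lay on 42 of their 42 members and on 55 of 59 one-gene promoters, with medians of 33.5 and 26.

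Aminoacyl-tRNA synthetases, which charge transfer RNAs, had 13 of 34 genes at shared promoters (38.2%), with ETV5 on 12 of 13 members and medians of 37.5 and 30 at shared and one-gene promoters. The highest of these was Ears2, the mitochondrial glutamyl-tRNA synthetase, with Ubfd1 at 168. Cytosolic ribosomal proteins had 20 of 89 genes there (22.5%) beside 58 one-gene promoters, ETV5 on 23 of 23 members, and nearly equal medians of 43 and 42. Proteasome symbols had 11 of 51 genes there beside 35 one-gene promoters, ETV5 on 11 of 11 members, and medians of 40 and 30. Of 397 genes of the Zfp zinc finger series 37 lay at shared promoters (9.32%). ETV5 lay on 31 of their 31 members and on 219 of 268 one-gene promoters of the group, with medians of 56 and 25. The highest there were 232 at Tmem253 and Zfp219 and 155 at Zfp668 and Zfp646.

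Histone genes in clusters stood at the low end. Of 67 genes 26 lay at 13 shared promoters, of which 9 had ETV5, with medians of 13 and 12 at shared and one-gene promoters. Near-identical histone copies could share or lose reads in mapping, which was not tested. The Tmem series had 53 of 238 genes at shared promoters (22.3%), ETV5 on 55 of 56 members and medians of 36 and 27.5, and the solute carriers had 43 of 375 (11.5%), 45 of 45 and 38 and 22.5. Over all members and all one-gene promoters with ETV5 the medians were 38 and 28.

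The ETS word was more frequent in the windows of shared promoters. Windows with the layout shown above were found for 1271 members (2249 windows) and 6334 one-gene promoters (6821 windows). The word CCGGAA on either strand was in 41.8% of the shared windows (39.7 to 43.9%), against 28.6% of the one-gene windows (27.5 to 29.7%) and 15.0% of all 32619 windows. The longer CCGGAAGT, whose matches are all also matches of CCGGAA, was in 14.0, 8.44 and 3.91%. Windows of head-to-head genes overlap, so the same copy can count in both. The intervals given for each word treat windows as separate and are too narrow for this reason. At head-to-head pairs 42.7% of the windows held CCGGAA, and at start-with-end pairs 36.7%. The median GC content was 62.7% at shared, 62.3% at one-gene and 53.0% in all windows, and the median number of CpG per window was 24, 22 and 7.

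Of the other 6 words searched on both strands, the YY1 word ATGGCGGC was also more frequent, in 7.47% of shared windows (6.42 to 8.64%), against 5.16% of one-gene windows (4.65 to 5.71%) and 2.26% of all windows. For the remaining words the intervals of shared and one-gene windows overlapped. The NRF1 word GCGCATGC was in 6.05, 6.32 and 2.72% of shared, one-gene and all windows. The GC box GGGCGG was in 68.4, 71.2 and 35.9%, the NF-Y box CCAAT in 39.5, 38.5 and 37.6%, the CRE TGACGTCA in 4.31, 3.49 and 1.80%, and the TATA word TATAAA in 4.67, 5.95 and 13.7%. A match is a run of letters and not evidence of binding.

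**Figure D5:**
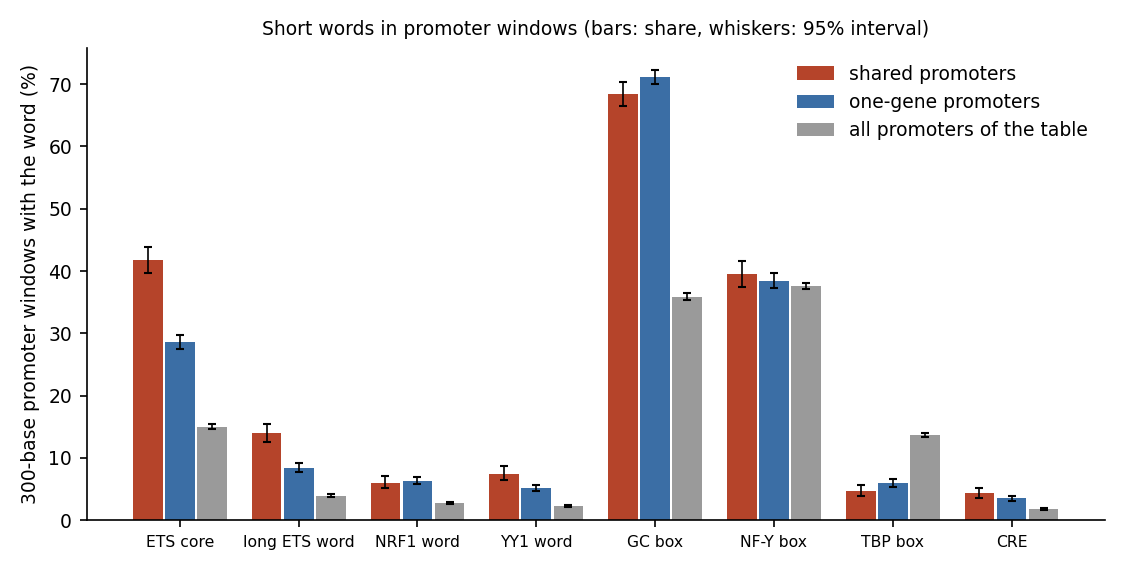
Percent of 300-base promoter windows that hold each of 8 short words on either strand, at shared promoters (red), one-gene promoters (blue) and in all windows of the table (grey), with exact 95% intervals. The intervals treat windows as separate although some overlap. The ETS core CCGGAA stands at 41.8% of shared windows, 28.6% of one-gene windows and 15.0% of all windows.

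ETV5 pileup went with this word inside the group. Members with CCGGAA in at least 1 window (628) had ETV5 at 98.9% and a median pileup of 52, and those without it (643) had ETV5 at 94.2% and a median of 28. Their median H3K4me3 pileups were 258 and 232. With CCGGAAGT (205 members) the median ETV5 pileup was 65.5, against 35 without it (1066). For the other 6 words the ratio of medians with and without the word ran from 0.788 for TATAAA to 1.13 for ATGGCGGC. One-gene promoters had medians of 45 with CCGGAA (1866) and 25 without it (4468), so the shared promoters' medians were higher in both classes. At 749 members the ETV5 summit itself fell in a window, and CCGGAA was in that window at 58.7% (440, 55.1 to 62.3%), against 46.4% of one-gene promoters (1145 of 2470). From the ETV5 summit to the nearest copy the median distance was 32.5 bp in both groups, and 63.6% of the 440 shared and 66.8% of the 1145 one-gene summits lay within 50 bp of it.

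Shared promoters on X were lower in both libraries. On X, 26 of 35 had ETV5 (74.3%, 56.7 to 87.5%), with a median ETV5 pileup of 16 and a median H3K4me3 pileup of 136. On the autosomes 96.7% of 1446 had ETV5, with medians of 39 and 248. One-gene promoters showed the same split, with 77.0% and an ETV5 median of 16 on X, against 92.8% and 29 on the autosomes. On X the ETV5 medians of shared and one-gene promoters were thus equal. The labels do not state the sex of the animals, and the X copy number was not tested. Among autosomes the ETV5 share ran from 87.5% on chromosome 6 (49 of 56) to 100% on chromosome 10 (62 of 62).

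The H3K4me3 peaks nearest to the thresholds of the rule were as follows. Just inside the length limit lay Rhoa with Tcta and Nek8 with Tlcd1, both at 3491 bp with ETV5 pileups of 52 and 59, and Fkbp15 with Slc31a1 at 3465 bp with 32. Just outside it lay Emc6 with Tax1bp3 at 3534 bp, Lnx2 with Polr1d at 3545 bp and Ankrd13a with Git2 at 3591 bp, with ETV5 pileups of 33, 61 and 288. The second gene end stood 995 bp from the H3K4me3 summit at Rin1 with Brms1, which had no ETV5, 995 bp at Stat6 with Nab2, which had an ETV5 pileup of 15, and 994 bp at Atxn7 with Thoc7, which had 17. Stat6 and Nab2 are an end-with-end pair, and strand was not known for both genes at Rin1 with Brms1. Outside the window the second gene end stood 1001 bp away at Zc3h13 with Cpb2, 1002 bp at Rilp with Prpf8 and 1002 bp at Nudt8 with Tbx10, all start-with-end pairs. Their ETV5 pileups were 51, 48 and 56.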

How the data were processed

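ETV5 and H3K4me3 were each measured by ChIP-seq in 1 library. Per the submitters' processing notes and the file headers, peaks were called per library with MACS2 2.1.0.20150420 at a q-value threshold of 0.05. The authors' tables give per peak the pileup signal, the fold enrichment ratio over input, the −log10 p-value and the −log10 q-value. Per the file headers 5715049 tags of 75 bp entered the ETV5 list, 34907608 tags of 50 bp entered that of H3K4me3, and the inputs had different names. Tag lengths, depths and backgrounds thus differ, and pileups were compared only within a library. The labels name mm9, but the coordinates are those of GRCm38, whose RefSeq gene table (GRCm38.p6, 21627 protein-coding genes on chromosomes 1 to 19 and X) was used. Strand came from the RefSeq promoter table and was given for 17273 of them.

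An ETV5 peak was assigned to an H3K4me3 peak on an overlap of at least 1 bp, and the one with the highest pileup was used. The gene end nearest to the summit was taken per gene. Python 3.11.15, numpy 2.4.6, pandas 2.3.3, scipy 1.17.1 and matplotlib 3.10.9 were used. With 1 library per antibody no test was made. The members, gene lists and words were chosen with earlier results of these data known. Named were the 10 members with the highest ETV5 pileup, the 5 with the highest H3K4me3 pileup, the 5 with the highest H3K4me3 pileup without ETV5, 5 with 3 genes, those nearest to the thresholds, listed close pairs, and after their values were seen the highest members of gene groups and those without ETV5. Alternatives changed the window, the length limit, the thresholds, the overlap rule and the gene set. Some of the listed close pairs are not reported here.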

Additional observations from a re-analysis of the deposited data

How the results depend on the processing

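The alternatives gave 91 values. In all 16 settings that gave both, the reported one included, the shared promoters had the higher ETV5 share and the higher median ETV5 pileup. Against the 1481 shared promoters reported, there were 1504 with no length limit, 1439 with H3K4me3 peaks of a stricter q-value and 1175 with a length below 2000 bp. A window of 500 bp gave 932 shared promoters with ETV5 at 97.3%, and one of 2 kb gave 2074, a median pileup of 36 at shared promoters and an ETV5 share of 91.1% at one-gene promoters. With all annotated genes there were 2864 shared promoters, with ETV5 at 94.8% of shared and 90.0% of one-gene promoters and a shared median of 33. A length below 2000 bp gave shared and one-gene medians of 36 and 27, a one-gene share of 91.1% and a median summit distance of 202 bp, against 225 bp as reported. H3K4me3 peaks whose −log10 q reached 10 gave a one-gene share of 93.6%. Keeping ETV5 peaks whose −log10 q reached 10 gave shares of 86.5 and 77.5% and medians of 42 and 33 at shared and one-gene promoters, and those of fold of at least 10 gave 73.3 and 62.4%, 48 and 38, and a summit distance of 235 bp. Requiring the ETV5 summit inside the H3K4me3 peak gave 91.4 and 87.2%, and at least 50% of the ETV5 peak inside it gave 91.1 and 87.2%.

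Within H3K4me3 quartiles, lowest to highest, the shares were 86.5, 98.6, 99.5 and 100% at shared and 81.6, 96.4, 98.8 and 99.6% at one-gene promoters, and the medians 22, 38, 43 and 51 and 19, 27, 33 and 41. Head-to-head pairs alone, an alternative chosen after seeing the data, gave 97.5%, a median of 42 and a summit distance of 251 bp. The share of ETV5 summits between facing gene ends stayed within its interval in each alternative tried. The causes of these shifts were not tested. No paired analysis was possible because there was 1 library per antibody. The ETV5 depth limits which weak peaks were called, so promoters without ETV5 may carry ETV5 below the threshold.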
